A study of Mus musculus with 18 samples.

Results

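The comparison set control mouse hearts taken 3 h after lipopolysaccharide (LPS) against control hearts taken 3 h after PBS. Its members are 6 of the 18 arrays of the study, chosen by their labels: 3 labelled control heart, LPS, 3 h and 3 labelled control heart, PBS, 3 h. The study also holds control hearts 30 min after LPS and the same 3 conditions in hearts deficient in Kir6.1, the potassium channel subunit encoded by Kcnj8. Per the design text the injection held 0.5 µg LPS in PBS, or PBS alone, and spoke of 3 mice per genotype. The sources used here do not give the strain, age, sex or exact genotype of the control mice. Hearts carry the numbers 1 to 3 within a group, but no label ties a number to an animal of its own. The p-values therefore rest on array-to-array spread, part of which may be technical. Each array measured RNA of whole heart tissue, so fewer cells of a type and less RNA per cell cannot be told apart.

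LPS is the outer-membrane endotoxin of Gram-negative bacteria. It is carried by the LPS-binding protein and CD14 to Toll-like receptor 4, which starts signalling through NF-kB and, by a second branch, the production of type I interferon. In blood vessels of the heart and other organs this switches on adhesion molecules and chemokines that bring leukocytes into the tissue, while secreted interferons and IL-6 family cytokines act on further cells through STAT proteins.

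Values are log2 RMA signals, in which 1 unit is a 2-fold difference and the median of all probe sets is 4.85. Changes are LPS minus PBS group means, with the standard error (SE) of a limma fit and a p adjusted over all 45037 probe sets. The fit took its spread from all 18 arrays. A gene passed where its adjusted p was under 0.05, and "rose" and "fell" are used of such genes.

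The 6 arrays had the signal of heart muscle. Cardiomyocyte markers were high and close together, with Myh6, the cardiac myosin heavy chain, at 13.80, 13.74 and 13.78 after LPS and 13.80, 13.84 and 13.81 after PBS, and 0 of 12 such markers passed by limma, nor did any have an unadjusted p under 0.05, against 11.3% of all genes. Kcnj8 was present in control hearts at 8.35, 8.77 and 8.83 after LPS and 8.52, 8.58 and 8.70 after PBS (change 0.05, SE 0.15, adjusted p = 0.954). In the mutant 3 h arrays it lay at 5.27 to 5.36 after LPS and 4.35 to 4.72 after PBS. All 6 control arrays were hybridized on 1 day, and their 3' minus 5' signal of Gapdh and Actb, a measure of RNA integrity, was 0.30 to 0.33 after LPS and 0.32 to 0.35 after PBS. The LPS arrays came from other array lots than the PBS arrays and were washed on another fluidics station, so lot, station and treatment cannot be told apart. LPS array 1 had the lowest median signal, 4.71, against 4.80 and 4.88 on the other LPS arrays and 4.85 to 4.89 on the PBS arrays.

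More genes rose than fell after LPS in the fit to all arrays, and the response differed in size between the 3 LPS arrays. Among 18193 genes 116 rose (0.638%) and 25 fell (0.137%). Over probe sets, 163 rose (0.362%) and 62 fell (0.138%), so 72.4% of calls were rises. That share was 90.6% with each array centred on its median, 59.0% with hybridization day as a block, 47.1% without the second-day mutant arrays and 43.3% with array weights. The 116 risen genes had changes of 0.49 to 3.89, and 67 of them rose at least 2-fold. Fallen genes changed less, at -1.04 to -0.43. The calls lean on the spread borrowed from the other groups: fitted on the 6 arrays alone, 6 probe sets rose and 0 fell, although 5239 had an unadjusted p under 0.05, and with first-day arrays 112 rose and 71 fell. The counts risen and fallen were 54 and 23 without LPS array 1, 56 and 29 without LPS array 2, and 415 and 196 without LPS array 3. They were 62 and 17, 28 and 5, and 36 and 8 without PBS array 1, 2 or 3.

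The largest rise was in Selp, which encodes P-selectin, the endothelial and platelet receptor that starts leukocyte rolling. Its signal was 11.16, 9.80 and 6.59 on LPS arrays 1, 2 and 3, against 5.17, 5.40 and 5.30 after PBS. Only genes with every LPS array above every PBS array were ranked among the largest rises, so that trait was fixed by the choice. LPS array 3 was much closer to the PBS level than the others. The change was 3.89 (SE 0.76, 14.8-fold, adjusted p = 0.0298), and it did not pass with first-day arrays (adjusted p = 0.0832). Icam1, the ligand of leukocyte integrins that holds rolling cells, was at 11.56, 11.09 and 8.88 after LPS and 7.31, 7.16 and 7.11 after PBS. It changed by 3.32 (SE 0.46, 9.99-fold, adjusted p = 0.00435) and also passed with first-day arrays (adjusted p = 0.0398). Vcam1, the integrin ligand for monocytes and lymphocytes, was at 11.05, 10.40 and 8.66 after LPS and 7.37, 7.21 and 7.36 after PBS. Its change was 2.72 (6.61-fold, adjusted p = 0.00688), again with LPS array 3 lowest.

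Of 15 leukocyte adhesion genes these 3 rose and 0 fell, and the median change of the list was 0.12, against -0.01 over all genes. Sele, the other endothelial selectin, chosen after its values were seen, was at 6.49, 5.49 and 4.17 after LPS and 3.76 to 3.83 after PBS and did not pass (change 1.58, adjusted p = 0.0916). Of the other members, the adhesion molecule genes Icam2, Cd34 and Pecam1 had changes of 0.02, -0.01 and 0.21 and did not pass.

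**Figure D1:**
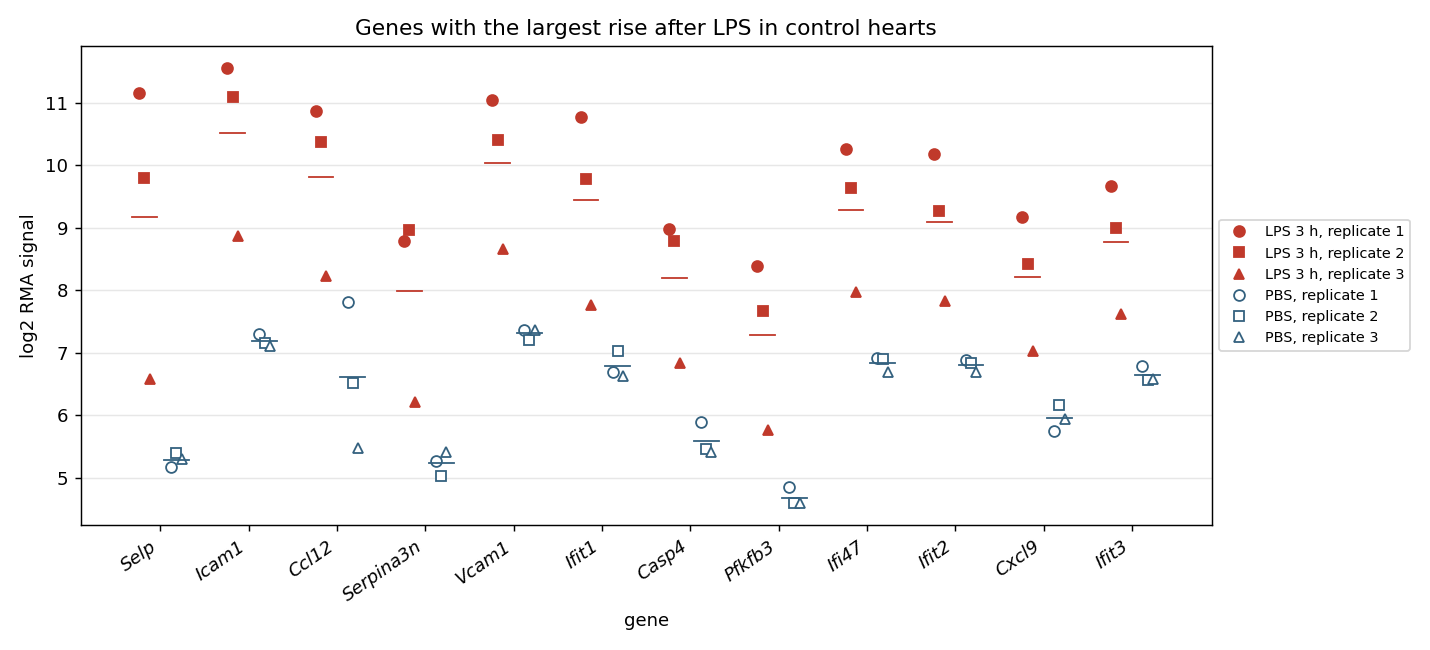
Log2 RMA signal (y axis) of the 12 genes with the largest rise (x axis), with LPS 3 h arrays as filled red symbols left of PBS arrays as open blue symbols, and group means (n = 3 each) as lines. The triangle of LPS array 3 is the lowest red symbol for every gene shown. It lies above all PBS symbols by choice, because only genes whose groups did not overlap were ranked.

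Chemokines rose as single genes. Ccl12, a monocyte attractant, was at 10.87, 10.37 and 8.23 after LPS and 7.82, 6.52 and 5.48 after PBS (change 3.22, SE 0.59, 9.29-fold, adjusted p = 0.0233). Its PBS arrays spread over more than 2 log2 units, and the groups did not overlap, which a place among the largest rises required. Ccl9, another myeloid cell attractant, rose by 1.23 (adjusted p = 0.0414). Cxcl9, an interferon-gamma-induced attractant of T cells, was at 9.18, 8.42 and 7.02 after LPS and 5.76, 6.16 and 5.94 after PBS, a change of 2.25 (adjusted p = 0.019). Of 13 CC chemokines 2 rose (median 0.44), and of 13 CXC and CX3C chemokines 1 rose (median 0.38), with 0 fallen in either list.

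Several chemokine and early inflammatory genes were far above PBS on LPS array 1 and near PBS on LPS array 3, and these did not pass. They were chosen after their values were seen. Cxcl10, an interferon-induced T cell attractant, was at 9.73, 8.14 and 5.07 after LPS and 4.62, 4.56 and 4.23 after PBS, a change of 3.18 (adjusted p = 0.093). Ccl2, the main CCR2 ligand for monocytes, was at 8.49, 7.54 and 5.88 after LPS and 5.81, 5.73 and 5.37 after PBS (change 1.67, adjusted p = 0.134). Ccl7, a related monocyte attractant, was at 8.39, 7.54 and 5.25 after LPS and 5.67, 5.34 and 5.14 after PBS, so its groups overlapped. Ptgs2, the inducible cyclooxygenase, stood above PBS on LPS array 1 alone, at 6.04 against 4.04 on both other LPS arrays and 3.98 to 4.08 after PBS. Among 20 inflammatory cytokine genes 0 passed by limma (median 0.09), and 4 were higher at an unadjusted p under 0.05, against 11.3% of all genes. Csf1, the macrophage growth factor, was at 0.93 (adjusted p = 0.12) and Tnfsf10, the death ligand TRAIL, at 1.41 (adjusted p = 0.0947). Tnf was at 0.41, Il6 at 0.25 and Il1b at -0.21, with signals near or below the median of all probe sets for Tnf and Il6.

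Of 13 genes of LPS sensing 1 passed, and 5 were higher and 0 lower at an unadjusted p under 0.05, against 11.3% of all genes. The gene that rose was Lbp, the LPS-binding protein, at 7.96, 7.92 and 7.35 after LPS and 6.72, 6.71 and 6.87 after PBS (change 0.97, adjusted p = 0.00645), and the median was 0.00. Lbp had 2 probe sets, of which 1 passed, and the lower change was 0.29. Tlr4 itself was at 5.75, 5.49 and 5.75 after LPS and 6.01, 5.78 and 5.84 after PBS (adjusted p = 0.762). Cd14, the co-receptor, was at 8.69, 8.34 and 7.31 after LPS and 6.79 to 7.22 after PBS and did not pass (change 1.13, adjusted p = 0.0914). Tlr4 and Cd14 were chosen after their values were seen.

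Among 11 genes of NF-kB subunits and their IkB inhibitors 3 rose, 0 fell and the median change was 0.51. Relb, a subunit of the alternative pathway, was at 7.99, 7.69 and 6.33 after LPS and 5.61, 5.68 and 5.56 after PBS (change 1.72, 3.30-fold). Bcl3, a nuclear IkB protein, changed by 1.68 and Nfkb2, the p100 precursor, by 1.07. Nfkb2 had 2 probe sets, of which 1 passed, and the lower change was 0.09. The list median above PBS was 1.12, 0.48 and 0.14 on LPS arrays 1, 2 and 3, against -0.08 to 0.06 for each PBS array set against the other PBS arrays. Feedback inhibitors had 2 of 17 risen, Birc3, an inhibitor of apoptosis (change 1.54), and Irak3, which blocks Toll-like receptor signalling (1.01), with a median of 0.34. Birc3 and Irak3 had 2 probe sets each, of which 1 passed, and the lower changes were 0.24 and 0.23. Tnfaip3, the A20 inhibitor of NF-kB, was at 8.95, 8.11 and 6.25 after LPS and 5.53 to 6.34 after PBS, so LPS array 3 fell inside the PBS range (change 1.86, adjusted p = 0.0781, chosen after its values were seen).

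The windows of gene starts were searched for letters of the kB site, because NF-kB list members rose. The motif GGGANNNNCC, on both strands, was present in the window from 250 bases before to 50 after a start in 22.9% of 27025 genes with a RefSeq window (build GRCm38.p6). It was present in 33 of the 88 risen genes with a window, 6 of 8 in the NF-kB list and 5 of 7 in the adhesion list. Of fallen genes with a window 6 of 20 held it, of interferon-stimulated antiviral genes 6 of 18 and of interferon-inducible GTPases 1 of 7. A match is a description of letters, and binding was not measured. The 150 bases before the start are printed for Selp, the gene with the largest change, and Birc3, with the match in capitals. Selp lies on the plus strand at chr1:164115114-164115263 and Birc3 on the minus strand at chr9:7873171-7873320.
Selp: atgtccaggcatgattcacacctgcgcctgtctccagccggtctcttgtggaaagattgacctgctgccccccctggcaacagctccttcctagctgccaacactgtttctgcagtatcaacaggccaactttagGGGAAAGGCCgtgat
Birc3: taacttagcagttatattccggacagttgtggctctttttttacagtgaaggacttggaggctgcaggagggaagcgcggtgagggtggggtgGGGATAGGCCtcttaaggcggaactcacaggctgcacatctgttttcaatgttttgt
The match begins 15 bases before the start in Selp and 57 bases before it in Birc3. The Icam1 window held no match to these letters.

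Interferon-stimulated genes formed the list with the most risen members. Of 26 antiviral genes 11 rose, against 0.638% of all genes, and 0 fell. All 26 had a positive change, against 8851 of all 18193 genes, and the median was 1.02. The Ifit genes, whose proteins bind viral RNA, led them: Ifit1 was at 10.78, 9.78 and 7.77 after LPS and 6.69, 7.03 and 6.64 after PBS (change 2.66, SE 0.52, 6.30-fold, adjusted p = 0.0298). Ifit2 changed by 2.29 and Ifit3 by 2.12. Parp14, a mono-ADP-ribosyltransferase, rose by 1.96, Usp18, which removes the ubiquitin-like ISG15 and dampens interferon receptor signalling, by 1.76, and Rtp4 by 1.54. LPS array 1 was the highest of the LPS arrays in 25 of the 26 genes and array 3 the lowest in 25. The list medians above PBS were 1.77, 0.99 and 0.44 on arrays 1, 2 and 3, against -0.09 to 0.04 on PBS arrays. Among 15 genes of interferon signalling 2 rose, the transcription factors Irf7 (1.24) and Irf8 (0.83), with a median of 0.34. Irf8 had 2 probe sets, of which 1 passed, and the lower change was -0.04. The interferon genes Ifnb1 and Ifng, chosen after their values were seen, were near or below the median of all probe sets, at 3.58 to 5.04 after LPS and 3.54 to 4.42 after PBS.

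Interferon-inducible GTPases, which attack the vacuoles of intracellular microbes, rose in 8 of 9 members, with 0 fallen and a median of 1.73. Igtp was at 10.33, 10.10 and 9.45 after LPS and 7.98, 7.97 and 8.25 after PBS (change 1.89, SE 0.20, 3.71-fold, adjusted p = 0.0011). Irgm2 was at 9.01, 8.39 and 7.98 after LPS and 6.61, 6.68 and 6.72 after PBS (change 1.79, adjusted p = 0.00281). Every LPS array stood more than 1 log2 unit above the PBS mean for both, array 3 included. Ifi47 changed by 2.45, Gbp2 by 1.95, Gbp6 by 1.73 and Iigp1 by 1.65. Irgm1 was the 1 member that did not pass, at 1.24. The members are close paralogs and their probe sets may share signal. LPS array 1 was highest and array 3 lowest in all 9 genes, with list medians of 2.26, 1.79 and 1.01 above PBS.

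The interferon response element, letters GAAANNGAAA on both strands, was searched in the same windows because interferon-stimulated genes rose together. It was found in 3.99% of all 27025 genes, in 16 of the 88 matched risen genes, in 9 of 18 antiviral genes and in 6 of 7 interferon-inducible GTPases. Of 20 fallen genes with a window 2 held it. The kB and interferon letters overlapped in 6 of 32851 windows. The stretches are printed for Ifit1, which has a pair of matches, and for the GTPases Igtp and Irgm2, whose matches read alike. They lie on the plus strand at chr19:34640739-34640888, chr11:58199406-58199555 and chr11:58214827-58214976, credited to RefSeq on GRCm38.p6, with matches in capitals.
Ifit1: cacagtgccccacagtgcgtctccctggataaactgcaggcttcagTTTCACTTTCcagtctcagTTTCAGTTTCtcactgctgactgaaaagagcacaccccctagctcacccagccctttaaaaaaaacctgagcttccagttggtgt
Igtp: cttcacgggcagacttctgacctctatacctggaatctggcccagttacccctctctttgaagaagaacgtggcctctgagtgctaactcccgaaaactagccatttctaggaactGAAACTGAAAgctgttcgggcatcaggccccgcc
Irgm2: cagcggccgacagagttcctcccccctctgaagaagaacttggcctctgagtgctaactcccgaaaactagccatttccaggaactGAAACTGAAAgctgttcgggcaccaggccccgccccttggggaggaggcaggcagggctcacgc
The Ifit1 matches read on the opposite strand and begin 104 and 85 bases before the start, those of Igtp and Irgm2 34 and 64 bases before it. Ifit2, Psmb9 and Tap1, which also rose, held no match to these letters in their windows.

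Of 13 genes that prepare peptides for MHC class I 6 rose and 0 fell, with a median of 0.54. Psmb9, a catalytic subunit of the immunoproteasome, was at 8.40, 8.20 and 8.06 after LPS and 7.02, 7.02 and 6.93 after PBS (change 1.23, SE 0.12, 2.35-fold, adjusted p = 0.000312). It was the 1 risen gene that also passed on the 6 arrays alone (adjusted p = 0.0498). The peptide transporter genes Tap1 and Tap2 changed by 1.43 and 0.94, the immunoproteasome subunit Psmb8 by 1.06 and Tapbp, which loads peptides, by 0.54. Tap1, Psmb8 and Tapbp had 4, 2 and 2 probe sets, of which 1 each passed, with lowest changes of 0.07, 0.19 and 0.42. B2m, the light chain of MHC class I, was highest on LPS array 3, at 12.32, 12.47 and 12.70 after LPS and 11.78, 11.86 and 11.81 after PBS (change 0.68, adjusted p = 0.0121). The list medians above PBS were 0.56, 0.57 and 0.31 on arrays 1, 2 and 3.

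MHC class II genes, which mark antigen-presenting cells, had another pattern over the arrays. By limma 0 of 6 passed, and 3 were higher at an unadjusted p under 0.05, against 11.3% of all genes. H2-Aa was at 9.73, 10.19 and 11.06 after LPS and 9.57, 9.64 and 9.93 after PBS (change 0.61, adjusted p = 0.386), and H2-Ab1 at 8.63, 9.13 and 9.99 after LPS and 8.62, 8.54 and 8.94 after PBS. Here LPS array 3 was the highest of the 6 arrays and the other LPS arrays lay near PBS or inside its range. Cd74, the invariant chain, and H2-Eb1, chosen after their values were seen, were also highest on array 3, at 10.32 and 10.19. The list medians above PBS were -0.06, 0.22 and 1.24 on arrays 1, 2 and 3.

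Genes downstream of IL-6 family cytokines rose in 4 of 15 members, with 0 fallen and a median of 0.58. Cebpd, an acute-phase transcription factor, was at 10.83, 10.49 and 9.62 after LPS and 9.20, 9.09 and 8.52 after PBS (change 1.37). The oncostatin M receptor gene Osmr changed by 1.32, Il4ra by 0.92 and the kinase gene Pim1 by 0.69. Cebpd, Osmr, Il4ra and Pim1 had 2, 3, 3 and 2 probe sets, of which 1 each passed. The lowest changes among these probe sets were 0.50, 0.01, 0.11 and 0.11. Of 17 acute-phase and iron-binding genes 1 rose, Serpina3n, a protease inhibitor, at 8.80, 8.97 and 6.22 after LPS and 5.27, 5.02 and 5.42 after PBS (change 2.76, SE 0.48, 6.75-fold, adjusted p = 0.0166). Lcn2, which binds bacterial siderophores and was chosen after its values were seen, had a change of 2.17 and sat at 8.13, 6.68 and 5.18 after LPS and 4.65, 4.15 and 4.67 after PBS, just outside the threshold. The metallothioneins Mt2 and Mt1, which bind zinc and copper, rose by 1.86 (3.63-fold) and 0.82, with Mt2 at 12.12, 11.83 and 10.81 after LPS and 10.13, 9.46 and 9.58 after PBS.

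Glucocorticoid-responsive genes rose in 4 of 17 members, with a median of 0.72 and 0 fallen. Fkbp5, a co-chaperone of the glucocorticoid receptor, was at 9.91, 9.55 and 8.61 after LPS and 7.89, 7.94 and 7.68 after PBS (change 1.52, adjusted p = 0.0315). Fkbp5 had 3 probe sets, of which 1 passed, and the lowest change was 0.35. Map3k6 changed by 1.20, Sult1a1 by 0.97, and Cebpd belongs to this list too. LPS arrays 1 and 2 were alike here, with list medians of 0.84 each, and array 3 stood at 0.34.

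Cell death genes had 2 of 15 risen (median 0.37). Casp4, known in mice as caspase-11, the sensor of cytosolic LPS, was at 8.98, 8.79 and 6.84 after LPS and 5.90, 5.46 and 5.41 after PBS (change 2.61, SE 0.37, 6.11-fold, adjusted p = 0.00457). Fas, a death receptor, changed by 1.12. In metabolism the single mover was Pfkfb3, which makes the allosteric activator of phosphofructokinase, at 8.39, 7.67 and 5.77 after LPS and 4.85, 4.60 and 4.60 after PBS (change 2.60, 6.05-fold, adjusted p = 0.0173). It was the 1 gene of 17 in glucose uptake and glycolysis that passed, and that list's median was -0.02. Pfkfb3 had 2 probe sets, of which 1 passed, and the lower change was 0.51. Fatty acid oxidation (0 of 20, median 0.02), respiratory chain (0 of 20, median -0.06), calcium handling (0 of 13, median -0.08) and cardiac potassium channels (0 of 16, median 0.03) had no member past the limma threshold. At an unadjusted p under 0.05 they had 1, 0, 1 and 2 members, against 11.3% of all genes. The lowest p-values in these lists belonged to Ucp3, a mitochondrial uncoupling protein, at 0.82 (adjusted p = 0.21), Cox5a at -0.09, Slc8a1, the sodium-calcium exchanger, at -0.87 (adjusted p = 0.216), and Kcna5, at 0.77 (adjusted p = 0.0568).

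Immediate early factors are switched on within minutes of a stimulus. Of 11 AP-1 and ATF factors 1 rose, Batf, at 0.69 (adjusted p = 0.0121). At an unadjusted p under 0.05, which 11.3% of all genes had, 3 were higher and 2 lower. The medians of that list above PBS were 0.58, 0.20 and 0.05 on LPS arrays 1, 2 and 3. None of 11 EGR and NR4A factors passed by limma (median -0.23), and 3 were lower at an unadjusted p under 0.05, against that same 11.3%. Of 10 Kruppel-like factors 1 fell, Klf4, a vascular and epithelial regulator, at 8.06, 7.99 and 8.51 after LPS and 9.0, 8.59 and 8.93 after PBS (change -0.66, adjusted p = 0.0412). None of 16 circadian clock genes passed by limma, and 9 had an unadjusted p under 0.05, 7 of them higher, against a background of 11.3% of genes. Arntl was at -0.92 (adjusted p = 0.0962) and Ciart at 1.28 (adjusted p = 0.128), and PBS array 1 stood apart from the other PBS arrays in both, at 6.89 against 6.06 and 6.18 for Arntl and at 5.07 against 5.99 and 5.88 for Ciart.

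Genes that fell included a cardiac hormone and vascular regulators. Nppb, which encodes B-type natriuretic peptide, was at 11.10, 11.17 and 10.88 after LPS and 12.18, 12.05 and 12.03 after PBS (change -1.04, SE 0.16, adjusted p = 0.00932). All 3 LPS arrays were lowered by a like amount, array 3 the most. It was the 1 fallen gene of 9 natriuretic peptide and cardiac stress genes (median -0.16), and Nppa, the atrial peptide gene, was at -0.07, chosen after its value was seen. Fgd5, an endothelial activator of Cdc42, was at 7.24, 7.05 and 8.07 after LPS and 8.53, 8.44 and 8.51 after PBS (change -1.04, adjusted p = 0.0246), with array 3 nearest to PBS. Adam19, a membrane metalloprotease, fell by 1.03, the 1 mover among 17 matricellular and protease genes. Dmtn, an actin-bundling protein, fell by 0.95, Fam102a by 0.92, Rbx1, a ubiquitin ligase subunit, by 0.84, Zfp712 by 0.72, and Eepd1 and Ankrd26 by 0.67 each. Dmtn and Ankrd26 had 3 probe sets each, of which 1 passed, and the highest change among them was -0.05 and 0.08. The second probe sets of Adam19, Fam102a, Zfp712 and Eepd1 did not pass but were also lower, at -0.60, -0.37, -0.15 and -0.45. Dim genes close to the array's floor understate a fall, and Rbx1 at 4.29 to 4.56 after LPS is one of them.

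**Figure D2:**
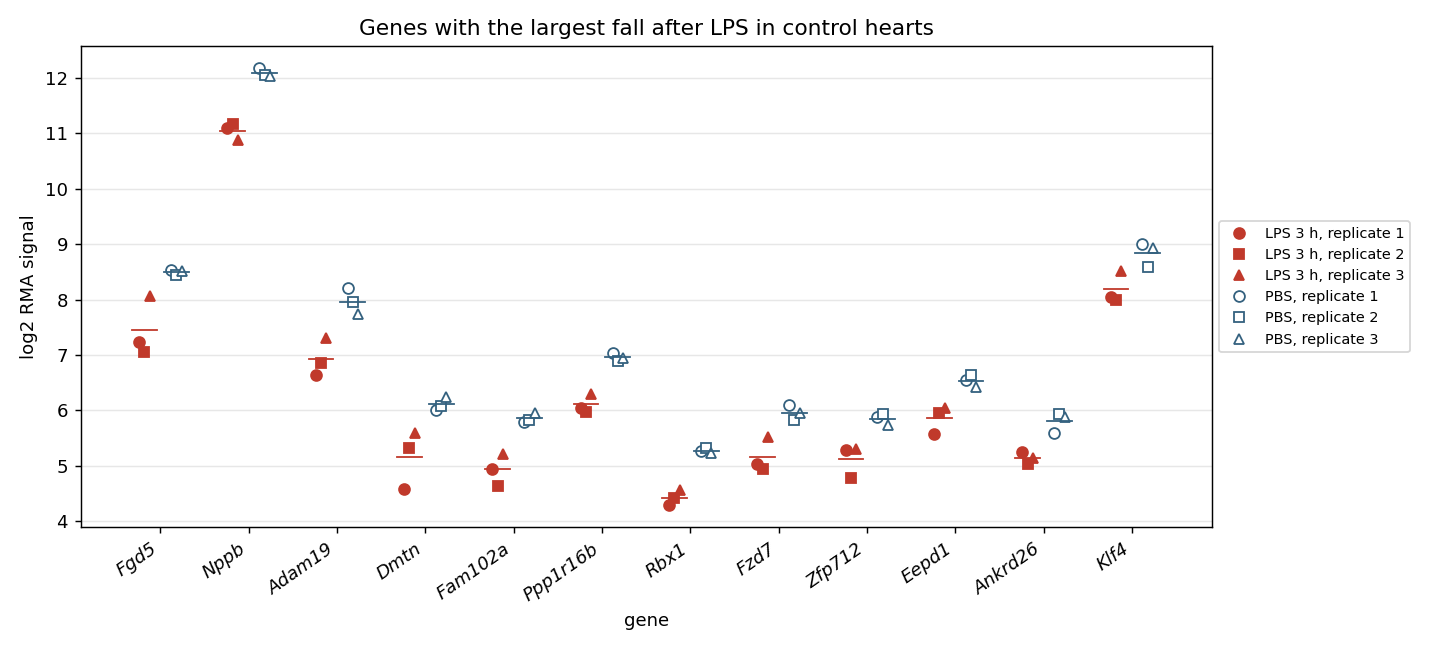
Log2 RMA signal (y axis) of the 12 genes with the largest fall (x axis), with LPS 3 h arrays as filled red symbols left of PBS arrays as open blue symbols, and group means (n = 3 each) as lines. Nppb sits 1.04 lower after LPS with the arrays of each group close together, whereas for Fgd5 LPS array 3 lies near the PBS arrays.

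Regulators of vessel growth were lower as a list. Of 20 genes 4 fell, against 0.137% of all genes, and 0 rose. A positive change was found in 1 of the 20, against 8851 of all 18193 genes, and 19 had a negative one. The median was -0.42. Besides Fgd5 the fallen genes were Ppp1r16b (TIMAP), an endothelial phosphatase regulator (change -0.85, adjusted p = 0.00354), the Wnt receptor gene Fzd7 (-0.80) and Angpt2, a ligand of the Tie2 receptor (-0.50, adjusted p = 0.048). Fgd5 had 1 probe set. The other 3 genes had 2 each, and their second probe sets did not pass, at -0.02 for Ppp1r16b, 0.10 for Fzd7 and 0.07 for Angpt2. Ppp1r16b was at 6.05, 5.97 and 6.30 after LPS and 7.03, 6.90 and 6.94 after PBS, lower on all LPS arrays, which a place among the largest falls required. The list medians relative to PBS were -0.63 and -0.55 on LPS arrays 1 and 2 but -0.04 on array 3. Array 3 was the highest LPS array in 16 of the 20 genes, against 30.6% of all genes.

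Of 12 endothelial identity genes 0 passed by limma and 3 were lower at an unadjusted p under 0.05, against 11.3% of all genes. Kdr, the main VEGF receptor, was at 8.37, 8.44 and 9.29 after LPS and 9.53, 9.61 and 9.66 after PBS (change -0.90, adjusted p = 0.081), all LPS arrays below all PBS arrays. Cldn5, the endothelial tight junction claudin, was at 6.78, 7.46 and 8.33 after LPS and 8.26, 8.32 and 8.61 after PBS (change -0.87, adjusted p = 0.226), so array 3 lay inside the PBS range. The medians of the 12 genes were -0.35, -0.43 and 0.04 on LPS arrays 1, 2 and 3, and Pecam1 was at 8.43, 8.47 and 8.79 after LPS and 8.29 to 8.41 after PBS. Nos3, the endothelial nitric oxide synthase, was at -0.51 (adjusted p = 0.239). Of 16 vasoactive genes 0 passed by limma and 2 were lower at an unadjusted p under 0.05, near the 11.3% of all genes. Vegfa, the growth factor itself, fell by 0.60 (adjusted p = 0.019, chosen after its value was seen).

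**Figure D3:**
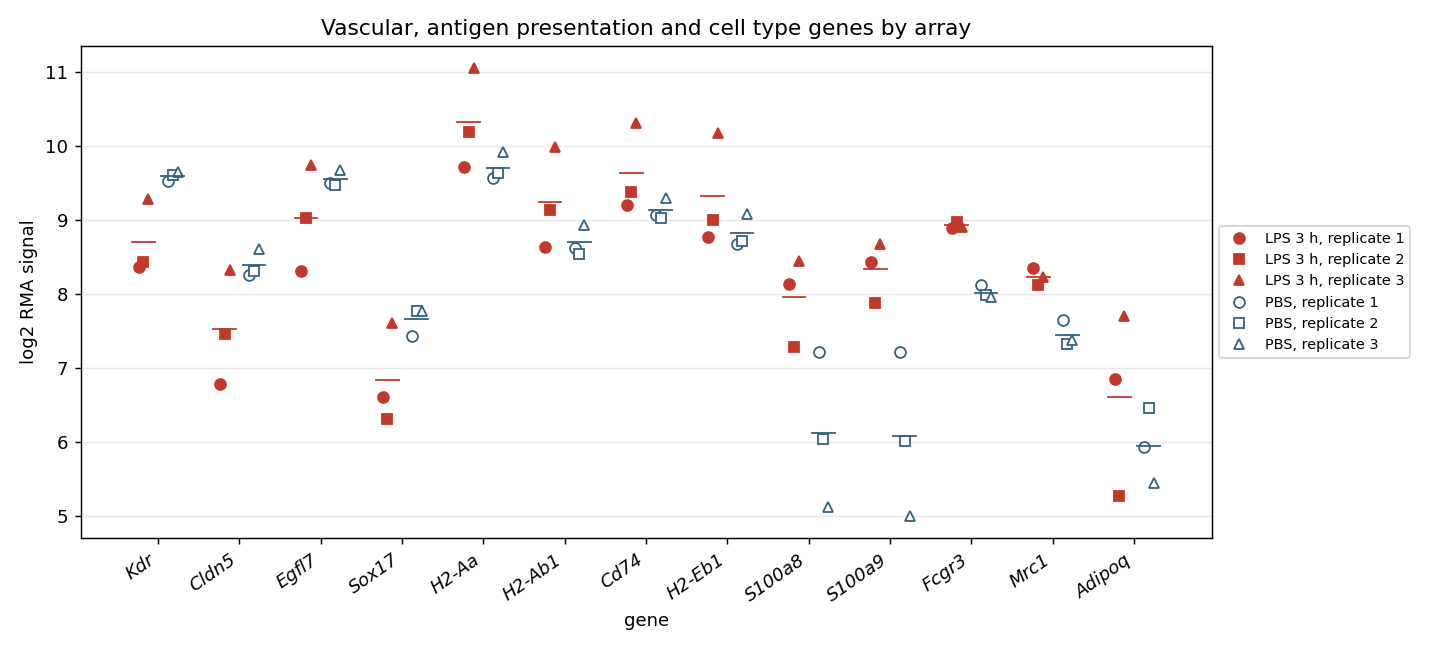
Log2 RMA signal (y axis) of vascular genes, MHC class II genes and cell type markers (x axis), with LPS 3 h arrays as filled red symbols left of PBS arrays as open blue symbols, and group means (n = 3 each) as lines. LPS array 3 is the highest of the 6 arrays for the 4 MHC class II genes, S100a8, S100a9 and Adipoq. It is the LPS array nearest to PBS for Kdr, Cldn5 and Sox17.

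Marker lists of cell types showed which other cells the samples could hold. Among 17 monocyte and macrophage markers 2 rose, the Fc receptor gene Fcgr3 and the mannose receptor gene Mrc1 (0.79), and the median was 0.32. The summed log2 signal of that list was 133.9 to 137.4 after LPS and 127.9 to 131.4 after PBS. None of 12 neutrophil markers passed by limma, and 3 were higher at an unadjusted p under 0.05, against 11.3% of all genes. The alarmins S100a9 and S100a8, the most abundant neutrophil proteins, were at 8.44, 7.88 and 8.68 and at 8.14, 7.28 and 8.45 after LPS, against 7.21, 6.01 and 5.0 and 7.21, 6.04 and 5.12 after PBS. All LPS arrays were higher than all PBS arrays for both, with PBS arrays spread over 2 log2 units (adjusted p = 0.154 and 0.328). Elane, the neutrophil elastase gene, and Cxcr2, a chemokine receptor gene, were dim, with Elane at 3.77 to 4.43 after LPS and 3.95 to 4.34 after PBS, and Cxcr2 at 3.82 to 4.21 and 3.83 to 3.90. The summed neutrophil signal was 59.8 to 65.4 after LPS and 54.1 to 59.2 after PBS, highest on LPS array 3 and PBS array 1.

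The lymphocyte, platelet, erythroid, lung, pericyte, fibroblast and fat lists had 0 members past the limma threshold, and 3, 1, 0, 1, 0, 3 and 0 at an unadjusted p under 0.05, which 11.3% of all genes had. For lymphocytes (12 markers) the median was -0.09, for platelets (8) 0.22, for erythroid cells (4) 0.11, for lung (8) -0.04, for pericytes and smooth muscle (12) -0.09 and for fibroblasts (12) 0.09. LPS array 3 was highest among LPS arrays in 11 of 12 fibroblast markers, against 30.6% of all genes. The list medians were -0.03, -0.01 and 0.30 on arrays 1, 2 and 3. Fat markers varied within both groups, with Adipoq, the adipocyte hormone, at 6.84, 5.27 and 7.70 after LPS and 5.93, 6.45 and 5.45 after PBS, and summed signals of 31.97 to 38.94 after LPS and 30.65 to 35.09 after PBS. The part of these cells in the risen and fallen genes was not tested.

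The size of the response was set out array by array. Of 18193 genes, 245, 171 and 58 stood at least 1 log2 unit above the PBS mean on LPS arrays 1, 2 and 3, and 41, 142 and 5 at least 1 below it. Set against the other PBS arrays in the same way, the PBS arrays had 2 to 4 genes above and 2 to 8 below. LPS array 3 therefore had the fewest such genes of the LPS arrays, and more above PBS than any PBS array had above the others, while its count below lay within the PBS range. Over the 116 risen genes, which were chosen on these arrays, the median difference from PBS was 1.46, 1.19 and 0.67 on arrays 1, 2 and 3. Array 1 was the highest LPS array in 92 of them (79.3%, against 29.2% of all genes) and array 3 the lowest in 103 (88.8%, against 21.6%). With each array centred on its median those counts were 102 and 100, and after quantile normalization 84 and 103.

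Array 3 was lower by a factor that itself varied from gene to gene. Its difference from PBS, as a percent of that on array 1, had a median of 43.4 over the risen genes, with quartiles of 33.0 and 63.1. The fallen genes were more alike, with median differences of -0.72, -0.77 and -0.51 on arrays 1, 2 and 3. Genes that rose in mutant hearts, a list of 1802 whose contrast holds none of these 6 arrays although the fit's spread came from all 18, had 122, 90 and 21 members at least 1 above control PBS on LPS arrays 1, 2 and 3, and medians of 0.03, 0.15 and 0.11. The 2932 genes that fell in mutant hearts had 23, 70 and 1 members at least 1 below control PBS on the same arrays, and medians of 0.01, -0.13 and 0.01. Mutant LPS arrays 1 and 3 were hybridized on another day than the mutant PBS arrays. Their 3' minus 5' signals were 1.37 and 1.09, against 0.34 to 0.44 on the mutant PBS arrays. These mutant lists may thus hold genes that differ by day or RNA integrity, and that part was not tested.

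LPS arrays 1 and 3 shared an array lot in the experiment files, and array 2 came from another. By binned hybridization time, LPS arrays 2 and 3 fell together and LPS array 1 fell with the PBS arrays. All 3 LPS arrays had the same fluidics station, which was not that of the PBS arrays. The 3' minus 5' signals were 0.30, 0.33 and 0.32 on LPS arrays 1, 2 and 3, against 0.32 to 0.35 on the PBS arrays. The part of lot, hybridization time and these signals in the spread of the LPS arrays was not tested. The injected dose and the time of dissection of single animals are unstated.

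**Figure D4:**
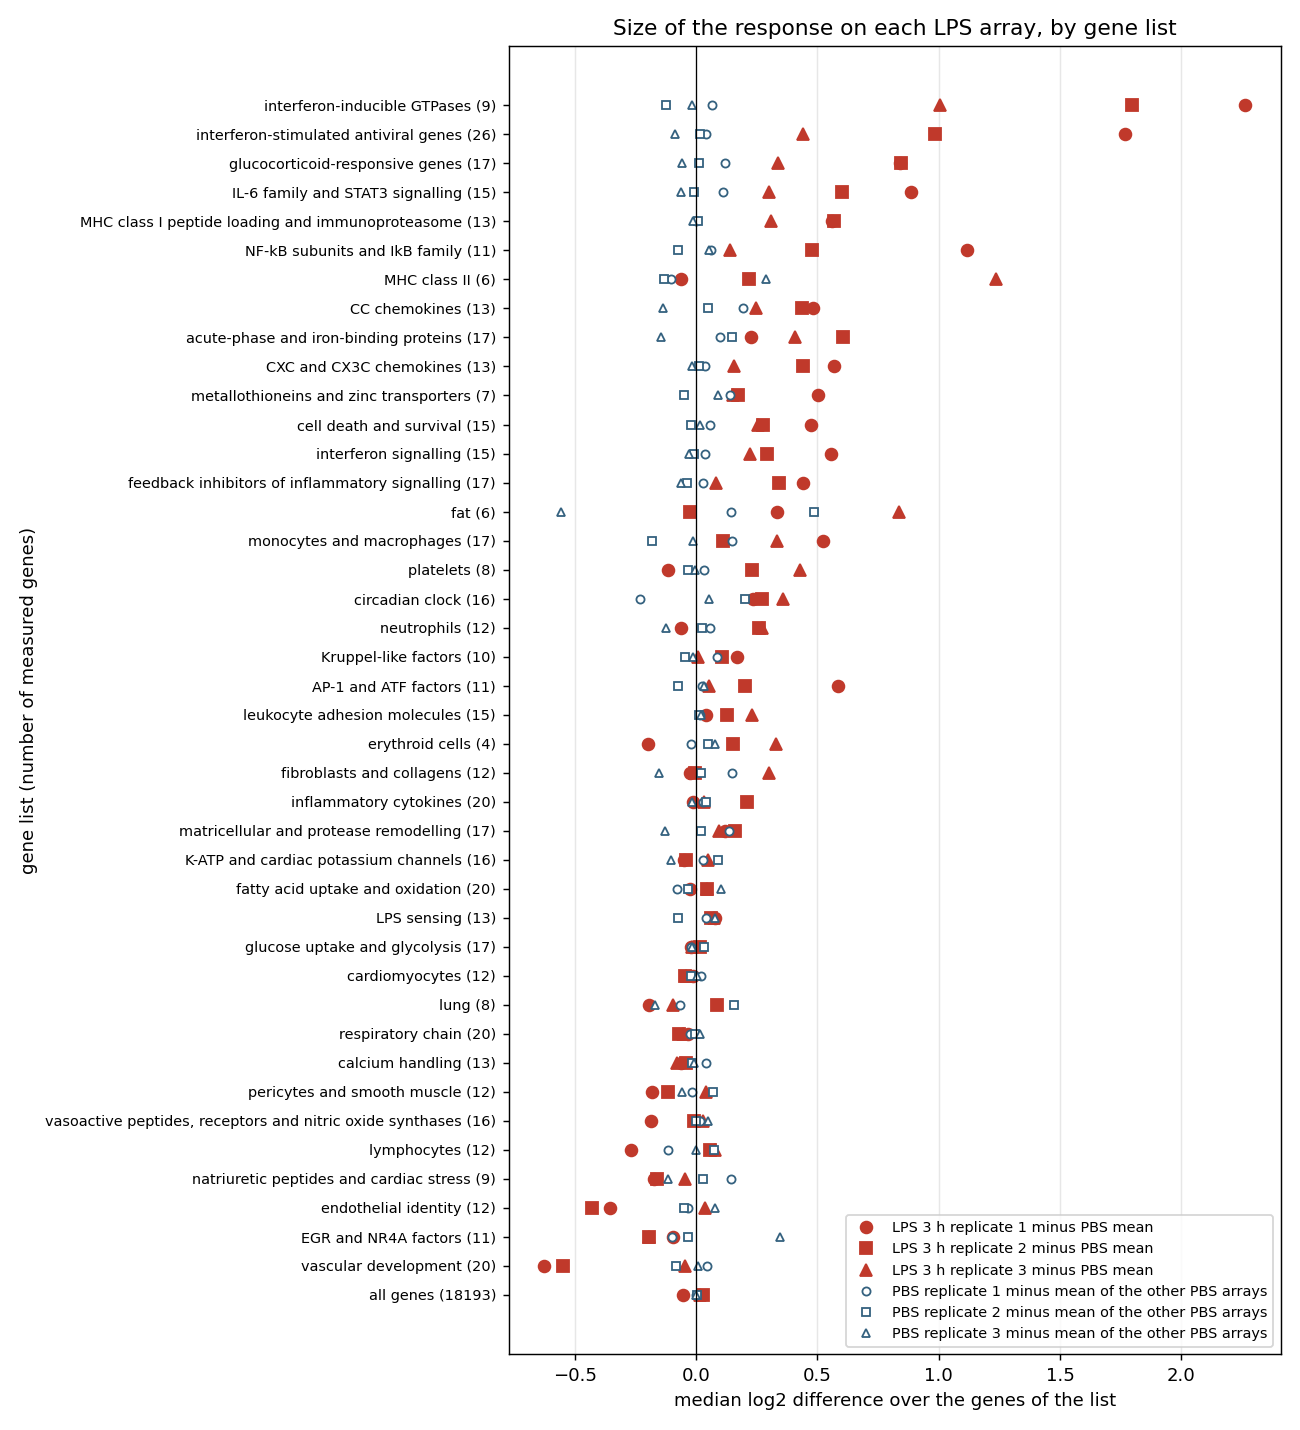
Median log2 difference (x axis) over the measured genes of each list (y axis, with the number of genes), for each LPS 3 h array minus the PBS mean (filled red) and each PBS array minus the mean of the other PBS arrays (open blue). Interferon-inducible GTPases, antiviral genes, the IL-6 and STAT3 list and the NF-kB list are among those that run from array 1, the largest, to array 3, the smallest. The MHC class II list has array 3 farthest from 0.

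Not all lists had the same order of arrays. The signed median was largest on array 1, intermediate on array 2 and smallest on array 3 in 12 of the 41 lists. The count was 12 after quantile normalization and 11 after centring. In lists that were lower after LPS, the highest array by sign can be the one nearest to PBS. The antiviral, GTPase, NF-kB and IL-6 and STAT3 lists had this order in all 3 of these settings. So did the CC chemokine list, the CXC and CX3C chemokine list and the AP-1 and ATF list. Of the antiviral, GTPase and NF-kB lists, 0 genes were highest on array 3 among the LPS arrays, against 30.6% of all genes. The count was 5 of 6 MHC class II genes, 10 of 12 endothelial identity genes and 11 of 12 fibroblast markers. For MHC class II, array 3 was farthest from PBS, with medians of -0.06, 0.22 and 1.24 on arrays 1, 2 and 3. For endothelial identity it was nearest to PBS (-0.35, -0.43 and 0.04), as for vascular development (-0.63, -0.55 and -0.04). Lists and arrays were both seen before this comparison of orders was made, and it is given with no test.

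Among the risen genes the unevenness ranged widely. The range over the LPS arrays, divided by the mean change, had a median of 0.78, was at least 1 in 20 genes and was under 0.5 in 29. The widest relative ranges belonged to Usp18, Phf11d, Ms4a6d, Cd274, Selp, Gbp3, Slc15a3 and Slfn8. Cd274, which encodes the checkpoint ligand PD-L1, was at 8.17, 7.35 and 6.20 after LPS and 5.58, 5.53 and 5.67 after PBS (change 1.64, adjusted p = 0.0387), and Usp18 at 8.89, 7.64 and 6.59 after LPS and 6.15, 5.80 and 5.89 after PBS. The narrowest belonged to Fcgr3, Chac1, Fam214a, Gsta3, Psmb9, Mrc1, Ncf4 and Gda.

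The even genes were chosen for having all 3 LPS arrays together. Fcgr3 was at 8.89, 8.98 and 8.91 after LPS and 8.12, 7.98 and 7.96 after PBS (change 0.91, SE 0.11, 1.88-fold, adjusted p = 0.00234). Chac1, a glutathione-degrading enzyme of the stress response, was at 7.40, 7.46 and 7.55 after LPS and 6.64, 6.61 and 6.53 after PBS (change 0.88). Mrc1, Ncf4, a subunit of the phagocyte oxidase, and Gsta3, a glutathione transferase, changed by 0.79, 0.54 and 1.08. Array 3 was the lowest LPS array in 2 of the 8 even genes, Psmb9 and Gda. On the 6 arrays alone, where even genes are favoured, 2 further named genes passed, each by 2 probe sets and chosen after their values were seen: Txnip, an inhibitor of thioredoxin and glucose uptake, and Fbxo32, the muscle ubiquitin ligase atrogin-1. The brightest Txnip probe set was at 11.52, 11.55 and 11.54 after LPS and 10.50, 10.55 and 10.63 after PBS (change 0.98, adjusted p = 0.0498 on 6 arrays and 0.0705 with all arrays in the fit). A Fbxo32 probe set was at 8.73, 8.77 and 8.59 after LPS and 7.67, 7.64 and 7.56 after PBS, and the brightest Fbxo32 probe set changed by only 0.28.

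**Figure D5:**
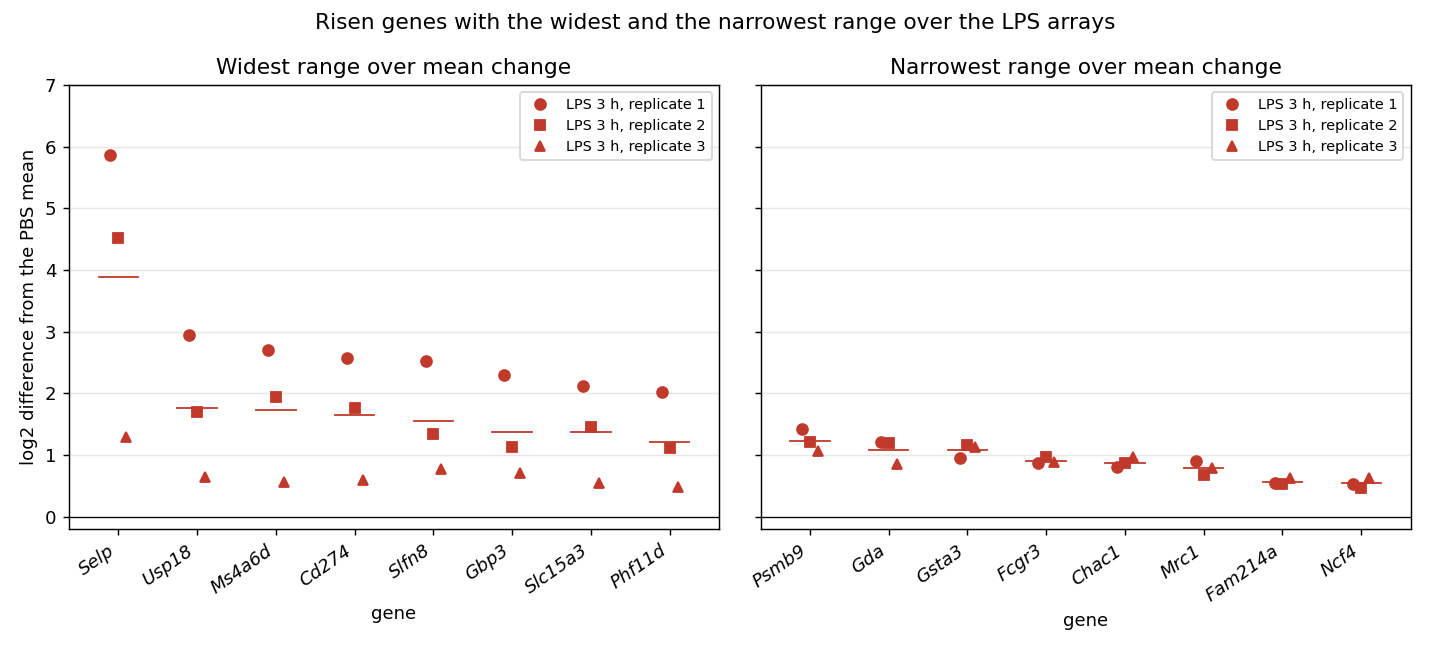
Log2 difference of each LPS 3 h array from the PBS mean (y axis) for the 8 risen genes with the widest (left) and the 8 with the narrowest (right) range over the LPS arrays relative to the mean change (x axis), with the mean change as a line. Array 3 is lowest in all 8 genes on the left. The 3 symbols lie close together on the right because the genes were chosen by this range.

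The direction of change was mostly shared by mutant hearts at 3 h, which have their own LPS and PBS arrays. Of the 116 genes risen in control hearts 112 (96.6%) had a positive change in mutant hearts, and of the 25 fallen genes 21 (84.0%) a negative one, against 55.6% of all genes with the same sign in both. Mutant LPS arrays 1 and 3 were hybridized on another day with 3' minus 5' signals of 1.37 and 1.09. The LPS effect differed between control and mutant hearts in 29 of 18193 genes (0.159%), and 2 of these were among the 141 genes of the control response. Nppb, which fell in control hearts, had a change of 0.04 in mutants, and the difference of -1.07 did not pass (adjusted p = 0.0706). Igtp changed by 1.89 in control hearts and 1.04 in mutants (adjusted p of the difference 0.129), and Selp by 3.89 in control hearts and 3.75 in mutants (adjusted p = 0.95).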

How the data were processed

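Total RNA from mouse hearts was amplified, labelled with biotin and hybridized to 18 Affymetrix whole-genome mouse expression arrays, of which 6 are compared here. The deposited values are log2 RMA signals per the submitters' processing notes, with the version, settings and genome build not given in the sources used here. RMA compresses dim signals, so their differences are understated, and the number of arrays limits precision. No 2 of the 6 arrays were copies (smallest SD of a difference 0.18).

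Of 45101 probe sets, 64 AFFX controls were left out and 45037 tested. By the platform annotation 34945 of these had 1 symbol, 932 several and 9160 none. The gene table held the Entrez identifiers of 34741, and 0 symbols were updated. The brightest probe set by mean over all arrays stands for a gene (18193 genes), and probe sets with several symbols name no gene.

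limma 3.58.1 in R 4.3.3 fitted 6 group means to all 18 arrays (12 residual and 3.83 prior degrees of freedom), with two-sided tests and Benjamini-Hochberg adjustment over all probe sets at 0.05, and was tested on simulated data. Errors are standard errors of the fit. Alternatives changed the arrays in the fit, batch and replicate blocks, normalization, array weights, variance trend, a filter on dim probe sets and the probe set per gene. Named genes were up to 12 each way by size with no overlap of groups and a mean at or above 4.85, up to 6 called members of each of 41 lists or the 2 with the lowest p, and the 8 most and 8 least even. The lists hold 601 entries, 553 of them measured. Members, lists and the naming rule were chosen with earlier results of these data known. Promoter windows are RefSeq's on GRCm38.p6, matched by symbol, and 88 of 116 risen and 20 of 25 fallen genes had one.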

Additional observations from a re-analysis of the deposited data

Results flagged for a closer look

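Among the genes of the control response, 2 had an LPS effect that differed between control and mutant hearts, both outside the naming rule and chosen after their values were seen. Fam107a, an actin-associated stress gene, was at 7.63, 7.42 and 7.18 after LPS and 6.39, 6.36 and 6.20 after PBS in control hearts, a change of 1.09. In mutants it was at 8.84, 7.98 and 8.58 after LPS and 5.70, 5.86 and 5.76 after PBS, a change of 2.7. The control minus mutant difference was -1.60 (SE 0.26, limma adjusted p = 0.0356), and all LPS arrays lay above all PBS arrays in both genotypes. Dnah11, an axonemal dynein heavy chain, was at 4.27, 4.21 and 4.53 after LPS and 4.84, 4.97 and 4.95 after PBS in control hearts, near the median of all probe sets. Its changes were -0.59 in control hearts and 0.32 in mutants, a difference of -0.90 (SE 0.16, adjusted p = 0.0462). On the first day alone, where mutant LPS array 2 is the only mutant LPS 3 h array, the differences were -1.12 for Fam107a (adjusted p = 0.101) and -0.73 for Dnah11 (adjusted p = 0.186). Without the second day in a fit to the remaining arrays, the same differences had an adjusted p of 0.028 for Fam107a and 0.0638 for Dnah11.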

How the results depend on the processing

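Of the 74 named genes that passed, all 74 kept their direction in every setting run. For most settings this was fixed in advance. The groups did not overlap in any of the 116 risen and 25 fallen genes. Leaving out arrays or changing only the fit could thus not reverse a direction. Only centring, quantile normalization and the median over a gene's probe sets could have done so. The 123 list medians by LPS array, which have no test, changed sign in 17 cases after centring, 8 after quantile normalization, 8 by the median over a gene's probe sets and 3 to 6 without 1 PBS array. The median of the NF-kB list on LPS array 3 was 0.14 and became -0.04 by the median over probe sets, and that of vascular development there was -0.04 and became 0.02 after centring. All 74 also kept their call with array weights, with dim probe sets left out, with day as a block and without the second day. The number kept was 66 after quantile normalization, 67 after centring, 69 with a variance trend, 58 by the median over a gene's probe sets, 35 on the first day, 1 on the 6 arrays alone (53 there without LPS array 3) and 56 with the replicate block over all arrays. It was 24, 22 and 73 without LPS array 1, 2 or 3 and 29, 13 and 16 without PBS array 1, 2 or 3. Probe sets risen and fallen were 163 and 62, against 1069 and 1400 with array weights, 408 and 283 with day as a block, 697 and 784 without the second day, 6 and 0 on the 6 arrays alone, and 22 fallen after centring and 36 after quantile normalization. The cause of these shifts was not tested. Leaving out 1 array gave 28 to 415 risen and 5 to 196 fallen. On the 6 arrays alone, an alternative chosen after seeing the data, leaving out LPS array 1, 2 or 3 gave 16, 0 and 230 risen and 13, 0 and 83 fallen.

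The correlations of same-numbered deviations were -0.04, 0.36 and 0.01, against -0.37 to 0.35 for arrays of unlike number. Deviations within a group of 3 depend on each other, so these values cannot show whether the replicate numbers pair the arrays. With the replicate block the 6 arrays gave 0 risen and 0 fallen by limma (5229 probe sets at an unadjusted p under 0.05), and the block over all arrays gave 111 and 23. The genotype differences of Fam107a and Dnah11 were -1.12 and -0.73 with day as a block, against -1.60 and -0.90 in the main fit. With that block neither passed by limma (adjusted p = 0.0734 and 0.129). On the first day alone and without the second day, where 1 mutant LPS 3 h array is left, the differences were also -1.12 and -0.73.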

Other observations

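Other risen genes outside the naming rule, chosen after their values were seen, included 2 that changed by more than 2 log2 units. Arrdc2, an arrestin-domain protein, was at 8.18, 8.09 and 6.86 after LPS and 6.01, 5.57 and 5.21 after PBS, a change of 2.12 (limma adjusted p = 0.00435). Slc10a6, a transporter of sulfated steroids, was at 9.50, 9.06 and 7.63 after LPS and 6.92, 6.63 and 6.55 after PBS, a change of 2.03. LPS array 3 was the lowest LPS array for both. A probe set for which the annotation used here names no gene was at 9.88, 9.68 and 9.48 after LPS and 6.99, 7.23 and 7.66 after PBS, a change of 2.39 (adjusted p = 0.000131), and it was among the 6 that passed on the 6 arrays alone.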
